A study of Mus musculus with 12 samples.

Results

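T-box transcription factors are DNA-binding proteins that share a conserved domain, the T-box, named after Brachyury, the product of the gene T. The 10 genes described here are T, Eomes, Tbx1, Tbx2, Tbx3, Tbx4, Tbx5, Tbx6, Tbx18 and Tbx20, chosen by symbol among the 54446 genes of the deposited expression table. They were measured in E14 mouse embryonic stem cells and in cells differentiated from them. The 12 poly(A) RNA libraries fall into 4 groups of 3. The first group, mESC, holds undifferentiated cells kept in serum with LIF, a cytokine that blocks differentiation, over a feeder layer of irradiated mouse embryonic fibroblasts. The others were sorted after differentiation by reporter expression and are called T+, SOX17+/T+ and SOX17+, SOX17 being an HMG-box factor of endoderm. Not given in the sources used here are the build of the reporters, the number of clones, and the agents and days of differentiation. Nor do the labels tell whether the libraries within a group are separate cultures, and the p-values cover the spread between libraries, which may be technical only.

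In the gastrulating mouse embryo, WNT, NODAL, FGF and BMP signals induce T and Eomes in the primitive streak, where cells leave the epiblast to form mesoderm and endoderm. Eomes is known for its part in definitive endoderm and anterior mesoderm, T for posterior mesoderm and notochord, and Tbx6 for the choice of paraxial mesoderm over neural tissue. Tbx1, Tbx5, Tbx18 and Tbx20 are known from the pharynx and heart, Tbx4 and Tbx5 from the limbs. Tbx2 and Tbx3 are closely related repressors, and Tbx3 is also part of the pluripotency network of mouse embryonic stem cells.

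Levels below are TPM, transcript abundances scaled by transcript length and to the same total in each library, as deposited by the authors. They are given for replicates 1, 2 and 3 in that order, with the group's mean ± SD (n = 3). Levels of different genes can be set side by side. The read depth behind a value is unknown. Differences are of log2(TPM + 1) ± the standard error of a limma fit to all 12 libraries, and p-values are adjusted by the Benjamini-Hochberg method over 16097 tested genes. The threshold for a call was an adjusted p under 0.05. Because 1 is added, differences of genes near or below 1 TPM are understated. Of the 10 genes, 7 passed the filter on low values, and Tbx4, Tbx5 and Tbx18, each at 1 TPM or more in only 1 library, did not.

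The labels were checked against marker genes. Sox17 was at 0.638 ± 0.157 TPM in mESC, 10.3 ± 2.5 in T+, 139 ± 13.8 in SOX17+/T+ and 230 ± 16.7 in SOX17+ (n = 3 each). The summed TPM of 8 pluripotent markers was 5952 to 6083 in mESC and at most 137 in any sorted library. That of 8 primitive streak and nascent mesoderm markers, T among them, was 429 to 506 in T+, 175 to 231 in SOX17+/T+ and 46.6 to 60.9 in SOX17+, against 89.7 to 93 in mESC. That of 10 definitive endoderm markers, Sox17 among them, was 147 to 158 in mESC, 595 to 718 in T+, 1855 to 1912 in SOX17+/T+ and 2621 to 2804 in SOX17+. In SOX17+ it was led by Krt18 and Krt8. The streak and endoderm sums include T and Sox17, whose reporters defined the sorted groups, so both are partly set by the sorting. Of the endoderm markers, Cxcr4 was lower in SOX17+ than in T+ (-0.79 ± 0.18), and the others were higher. Markers of other cell types were present as well. Those of neural cells, 6 genes, summed to 104 to 111 TPM in mESC and at most 3.62 elsewhere. They were led in mESC by Tubb3 (93.2 ± 3.01 TPM) and Pax6 (6.64 ± 0.279 TPM). Primitive blood markers summed to 104 to 246 TPM in SOX17+ and at most 24.2 elsewhere. Those of endothelium reached 66.4 to 80.9 TPM in SOX17+ and at most 43.5 elsewhere. Those of extraembryonic endoderm summed to 124 to 135 TPM in SOX17+ and at most 41.2 elsewhere. In SOX17+ this sum was led by Ttr (73.5 ± 8.33 TPM) and Hnf4a (29.5 ± 1.29 TPM). Of these markers, Ttr, Hnf4a, Amn, Apoa1 and Sox7 were higher in SOX17+ than in mESC. Lrp2 (-3.38 ± 0.10) and Dab2 (-0.32 ± 0.11) were lower, and Cubn was not called. The 14 feeder fibroblast markers summed to 3991 to 4869 TPM in mESC, led by Acta2 (1006 ± 127 TPM) and S100a6 (913 ± 61.3 TPM), against 83.1 to 146 in the sorted libraries, and S100a4 was listed at 0 throughout SOX17+/T+ and SOX17+.

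The 250 bases before the start of T, Tbx6 and Eomes are shown because T and Tbx6 stood in the same order across the groups, while Eomes stood in another. They are from RefSeq, build GRCm38.p6, on the plus strand, and run 5′ to 3′ up to the base before the start. T is encoded at chr17:8434423-8442496, Tbx6 at chr7:126781483-126785560 and Eomes at chr9:118478212-118486132, all on the plus strand of GRCm38. The windows are chr17:8434173-8434422 for T, chr7:126781233-126781482 for Tbx6 and chr9:118477939-118478188 for Eomes. Capitals mark a match to a motif searched on both strands.
T: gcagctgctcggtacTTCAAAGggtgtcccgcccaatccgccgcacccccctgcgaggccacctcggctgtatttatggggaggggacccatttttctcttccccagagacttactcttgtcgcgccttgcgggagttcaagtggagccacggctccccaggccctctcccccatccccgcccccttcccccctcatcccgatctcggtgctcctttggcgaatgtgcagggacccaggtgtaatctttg
Tbx6: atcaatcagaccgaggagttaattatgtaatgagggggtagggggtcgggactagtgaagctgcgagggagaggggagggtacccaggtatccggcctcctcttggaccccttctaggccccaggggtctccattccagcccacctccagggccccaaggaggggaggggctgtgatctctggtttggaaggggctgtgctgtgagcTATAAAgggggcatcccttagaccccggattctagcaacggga
Eomes: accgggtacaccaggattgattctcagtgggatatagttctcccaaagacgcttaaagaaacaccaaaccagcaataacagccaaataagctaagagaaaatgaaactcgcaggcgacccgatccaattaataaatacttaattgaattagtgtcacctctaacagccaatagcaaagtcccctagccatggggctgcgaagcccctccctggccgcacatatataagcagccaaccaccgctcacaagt

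The capitals in T are TTCAAAG, the reverse complement of CTTTGAA, which is a form bound by TCF/LEF factors, the effectors of WNT signalling. They lie 235 to 229 bases before the start. Those in Tbx6 are TATAAA, a core promoter element, and lie 43 to 38 bases before the start. The Eomes window held none of the letters searched. Of TATA forms only TATAAA was searched, and the Eomes window reads tatataag near its end, which was not counted. The RefSeq start of Eomes lies 23 bases from its start in the table. Windows were found for 7 of the 10 genes, 8 windows in all since Tbx1 has more than 1 start, and none for Tbx2, Tbx3 and Tbx5. A TATA match, TTTATA as printed on the gene's strand, was also found in the Tbx4 window, whose RefSeq start lies 10343 bases from the start of Tbx4 in the table. No window of these genes held the T-box motif TCACACC or the FOXH1 motifs AATCCACA and AATACACA. Of 32851 RefSeq windows of this length, 7.48% held CTTTGAA or CTTTGAT, 3.33% the T-box motif, 1.61% a FOXH1 motif and 12.4% TATAAA. The motifs do not overlap one another in these windows. The T window held 14 CpG dinucleotides, that of Eomes 8 and that of Tbx6 6, against a median of 6 over all windows. A match is a description of the letters and says nothing of binding.

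Together the 10 genes made up a different mixture in each group. Their summed TPM was 86.8, 89.7 and 80.3 in mESC (85.6 ± 4.8), 219, 176 and 245 in T+ (214 ± 35.1), 115, 101 and 144 in SOX17+/T+ (120 ± 22.3), and 91.4, 85.9 and 97.5 in SOX17+ (91.6 ± 5.79). All T+ libraries lay above all others, and the highest mESC and lowest SOX17+ libraries overlapped. The sum includes T, whose reporter defined the groups, so its order is partly set by the sorting. T alone gave 132, 92.1 and 158 TPM of the T+ sums. Tbx3 alone gave 90.9% ± 0.867 of the sum in mESC, 15.6% ± 3.29 in T+, 30.6% ± 4 in SOX17+/T+ and 63.2% ± 2.21 in SOX17+ (SD, n = 3 each). T gave 0.759% ± 0.0747, 59% ± 6.09, 36.3% ± 5.68 and 2.52% ± 0.376 in the same order. In SOX17+ the remainder was mostly Tbx20, at 14.8% ± 2.47, Eomes, at 11.8% ± 2.24, and Tbx2, at 5.03% ± 0.792. These shares lie within a library and do not depend on its scaling.

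**Figure D1:**
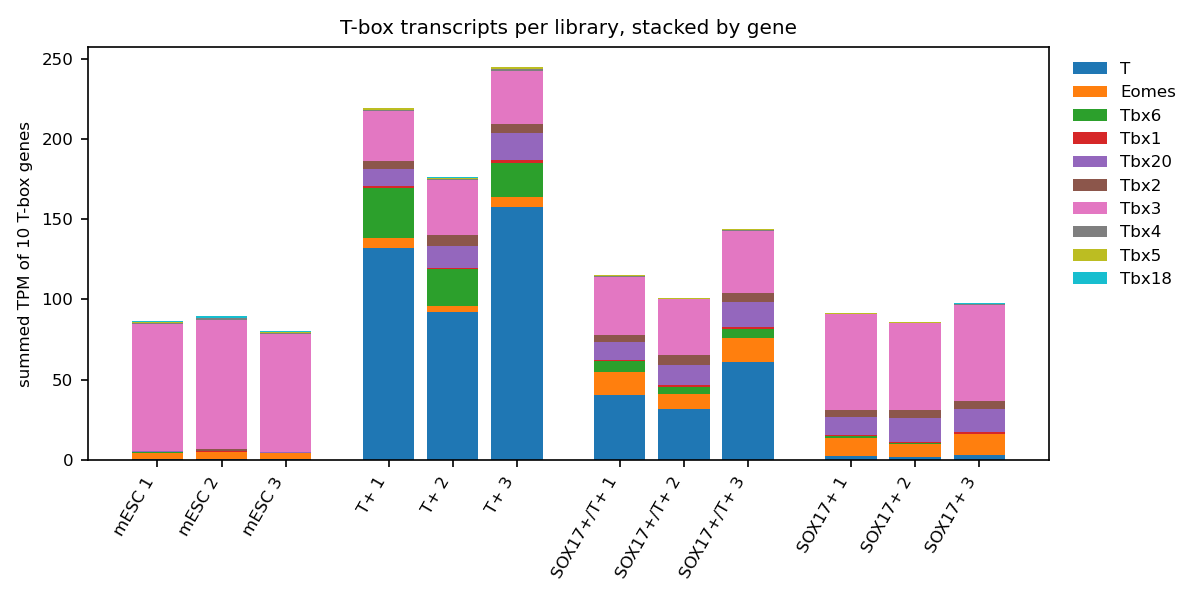
Summed TPM of the 10 T-box genes in each of the 12 libraries (bars start at 0), stacked by gene; the numbers on the x axis are replicates. Tbx3 fills most of each mESC and SOX17+ bar, T the largest share of each T+ bar, and the T+ bars reach 176 to 245 TPM.

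In T+ against mESC, 6 of the 10 genes were called, 5 higher and 1 lower, where 84.0% of all tested genes were called, 34.5% higher and 49.5% lower. In SOX17+/T+ against mESC, 7 were called, 6 higher and 1 lower, against 85.2% of all tested genes, 34.9% higher and 50.3% lower. In SOX17+ against mESC, 7 were called, 6 higher and 1 lower, against 85.4%, 35.4% higher and 50.0% lower. Most genes tested differed between mESC and sorted cells. The members are counted out of 10, of which 7 were tested, while the percentages are of tested genes. Between sorted groups fewer differed. In SOX17+/T+ against T+, 3 of the 10 were called, 1 higher and 2 lower, against 28.4% of all tested genes, 12.6% higher and 15.8% lower. In SOX17+ against SOX17+/T+, 3 were called, 1 higher and 2 lower, against 36.6%, 19.8% higher and 16.8% lower. In SOX17+ against T+, 5 were called, 2 higher and 3 lower, against 54.5%, 25.4% higher and 29.0% lower. Each count includes T, whose reporter defined the groups; without T the counts, in the order given, were 5, 6, 6, 2, 2 and 4 of 9 genes. The median log2 difference of the 7 tested genes against mESC was 2.20 in T+, 2.12 in SOX17+/T+ and 1.00 in SOX17+. Over all tested genes it was -0.17, -0.19 and -0.18. T, Tbx1, Tbx2, Tbx6 and Tbx20 reached 1 TPM only in sorted libraries, so they passed the filter through the groups where they are high. Tbx18, highest in mESC, did not pass, so the members' medians against mESC were largely set by the filter. The 1.00 in SOX17+ is the value of T, the sorting gene. The shift over all genes became -0.06, -0.06 and -0.05 with median-of-ratios scaling and 0.07, 0.06 and 0.05 with quantile normalization. Between sorted groups the members' median was -0.04 in SOX17+/T+ against T+, -0.24 in SOX17+ against SOX17+/T+ and -0.14 in SOX17+ against T+, beside -0.03, 0.00 and -0.03.

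**Figure D2:**
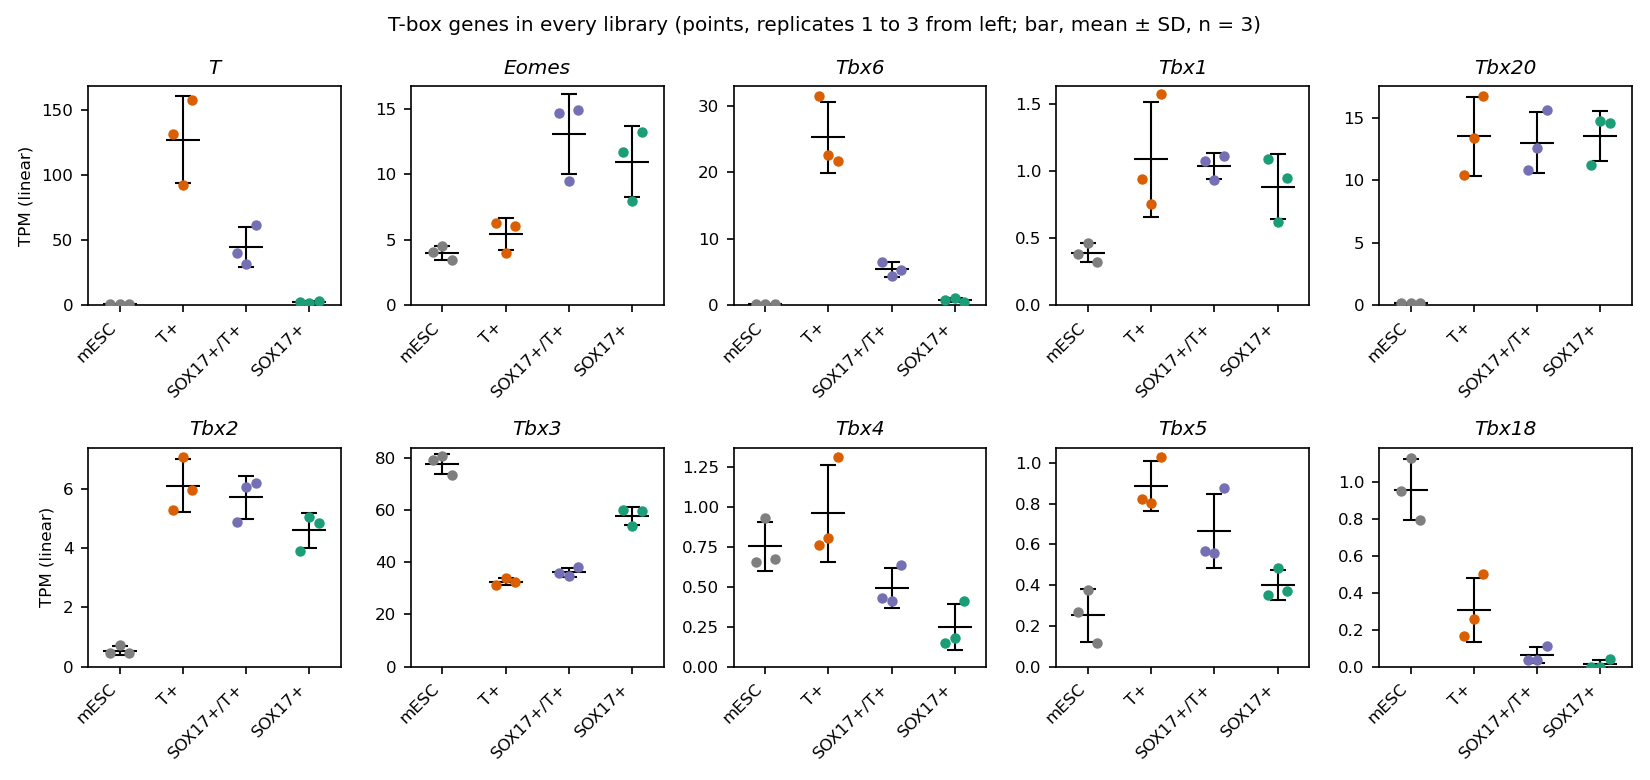
TPM of each T-box gene (y axis, linear and different for each gene) in the 4 groups; points are libraries and bars are mean ± SD, n = 3. T and Tbx6 are highest in T+, Eomes is highest in SOX17+/T+ and SOX17+, Tbx20 is level over the sorted groups, and Tbx3 is highest in mESC.

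T, the founding gene of the family, marks the streak and nascent mesoderm. It was at 0.65, 0.618 and 0.673 TPM in mESC (0.647 ± 0.0275), 132, 92.1 and 158 in T+ (127 ± 33.1), 40.4, 31.7 and 61.5 in SOX17+/T+ (44.5 ± 15.3), and 2.27, 1.86 and 2.84 in SOX17+ (2.32 ± 0.493). No 2 groups overlapped. Differences of T between sorted groups follow the gate, so they are descriptions without a test. The T+ mean stood 1.52 ± 0.24 above that of SOX17+/T+ on the log2 scale, and the SOX17+/T+ mean 3.73 ± 0.24 above that of SOX17+. The SOX17+ libraries stood 1.00 ± 0.24 above mESC. In bulk samples, fewer cells with a transcript and less transcript per cell cannot be told apart.

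Eomes, which acts upstream of definitive endoderm and of Mesp1, did not follow T. Its TPM was 4.04, 4.49 and 3.42 in mESC (3.98 ± 0.54), 6.23, 4 and 6.05 in T+ (5.43 ± 1.24), 14.7, 9.51 and 14.9 in SOX17+/T+ (13.1 ± 3.08), and 11.7, 7.98 and 13.2 in SOX17+ (10.9 ± 2.66). The mESC and T+ libraries overlapped, as did SOX17+/T+ and SOX17+, while every SOX17+/T+ and SOX17+ library lay above every mESC and T+ library. Eomes was 1.12 ± 0.21 higher in SOX17+/T+ than in T+ (limma, adjusted p = 0.0021) and 0.89 ± 0.21 higher in SOX17+ than in T+ (adjusted p = 0.0039). It was not called between SOX17+ and SOX17+/T+, with a difference of -0.24 ± 0.21 (adjusted p = 0.43). Against mESC it rose by 1.48 ± 0.21 in SOX17+/T+ (adjusted p = 3.8e-05) and by 1.24 ± 0.21 in SOX17+ (adjusted p = 0.00016). In T+ the difference from mESC was 0.35 ± 0.21 and was not called (adjusted p = 0.14). It was called there with quantile normalization (0.60, adjusted p = 0.014) and without T+ replicate 2 (0.52, adjusted p = 0.04), the T+ library with the lowest Eomes.

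The ratio of T to Eomes put the groups in a clear order. It was 21.2, 23 and 26.1 in T+, 2.74, 3.33 and 4.12 in SOX17+/T+, 0.195, 0.233 and 0.216 in SOX17+, and 0.161, 0.138 and 0.197 in mESC. The sorted groups did not overlap, and SOX17+ overlapped with mESC. T is the sorting gene, so this order is partly set by the gate.

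The summed TPM of genes listed upstream of T and Eomes in the streak was lowest, among sorted cells, in SOX17+, at 449 to 478. All 12 listed genes, mostly ligands, co-receptors and effectors, were tested. All 12 were lower in SOX17+ than in T+, beside 29.0% of all tested genes. Cdx2, a homeobox factor on this list named after its values were seen, had its lowest sorted mean in SOX17+/T+. It was at 28.5 ± 2.76 TPM there and 33.9 ± 5.07 in SOX17+, groups that overlapped. Their median difference was -1.59, beside -0.03 over all genes. The largest were Tdgf1 (-3.57 ± 0.17, a NODAL co-receptor, adjusted p = 8.7e-09), Fgf8 (-3.22 ± 0.22, an FGF ligand, adjusted p = 4.8e-07), Bmp4 (-2.17 ± 0.04, a BMP ligand, adjusted p = 1.1e-12) and Wnt3 (-2.10 ± 0.09, a WNT ligand, adjusted p = 4.4e-10). The SOX17+/T+ cells lay between: 10 of 12 were lower than in T+, and 10 of 12 were higher than in SOX17+, with none called the other way. Of all tested genes, 15.8% were lower than in T+ and 16.8% higher than in SOX17+. Wnt3, for example, was at 19, 17.8 and 16.3 TPM in T+, 9.87, 9.05 and 9.51 in SOX17+/T+, 3.81, 2.84 and 3.46 in SOX17+, and 0.861, 0.937 and 0.784 in mESC. Against mESC, 9 of the 12 were higher and 3 lower in T+, beside 34.5% and 49.5% of all tested genes. Those lower were Nodal, Tdgf1 and Fgf4, which embryonic stem cells also make and which are named here after their values were seen. Of the 12, 8 reached a mean of 1 TPM in mESC. The genes that did not reach it there passed the filter through sorted groups.

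All 14 listed genes known to depend on T or Eomes were higher in T+ than in mESC, beside 34.5% of all tested genes. Their median difference was 2.76, beside -0.17 over all tested genes. Of the 14, only 5 reached a mean of 1 TPM in mESC, against 14 in T+. Most thus passed the filter through sorted groups where they are high, so this count and median were largely set by the filter. They were led by Mesp1 (6.18 ± 0.16), Msgn1 (5.58 ± 0.18), Fgf8 (4.52 ± 0.22) and Evx1 (4.21 ± 0.12). In SOX17+/T+ against T+, 8 were lower, 1 higher and 5 not called, beside 15.8% lower and 12.6% higher over all tested genes. The median of the 14 was -0.63, beside -0.03. In SOX17+ against T+, 10 were lower, 1 higher and 3 not called, beside 29.0% lower and 25.4% higher. The median of the 14 was -1.46, beside -0.03. Msgn1, a presomitic bHLH factor, fell by 5.44 ± 0.18 (adjusted p = 1.7e-10) and Mesp1, a bHLH factor of cardiac and cranial mesoderm, fell by 5.36 ± 0.16 (adjusted p = 4.3e-11). Fgf8 and Mesp2 fell by 3.22 ± 0.22 and 2.67 ± 0.08. The gene that was higher in both was Foxa2, a forkhead factor of endoderm and node, singled out after its values were seen. It rose by 1.19 ± 0.22 in SOX17+/T+ (adjusted p = 0.0025) and by 1.68 ± 0.22 in SOX17+ (adjusted p = 8.6e-05). Foxa2 was at 23, 19.3 and 36.2 TPM in T+, 58.2, 49.2 and 71.9 in SOX17+/T+, and 83.2, 76.9 and 90.5 in SOX17+. These groups did not overlap. Between SOX17+ and SOX17+/T+ the difference was 0.49 ± 0.22 and was not called (limma, adjusted p = 0.11).

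**Figure D3:**
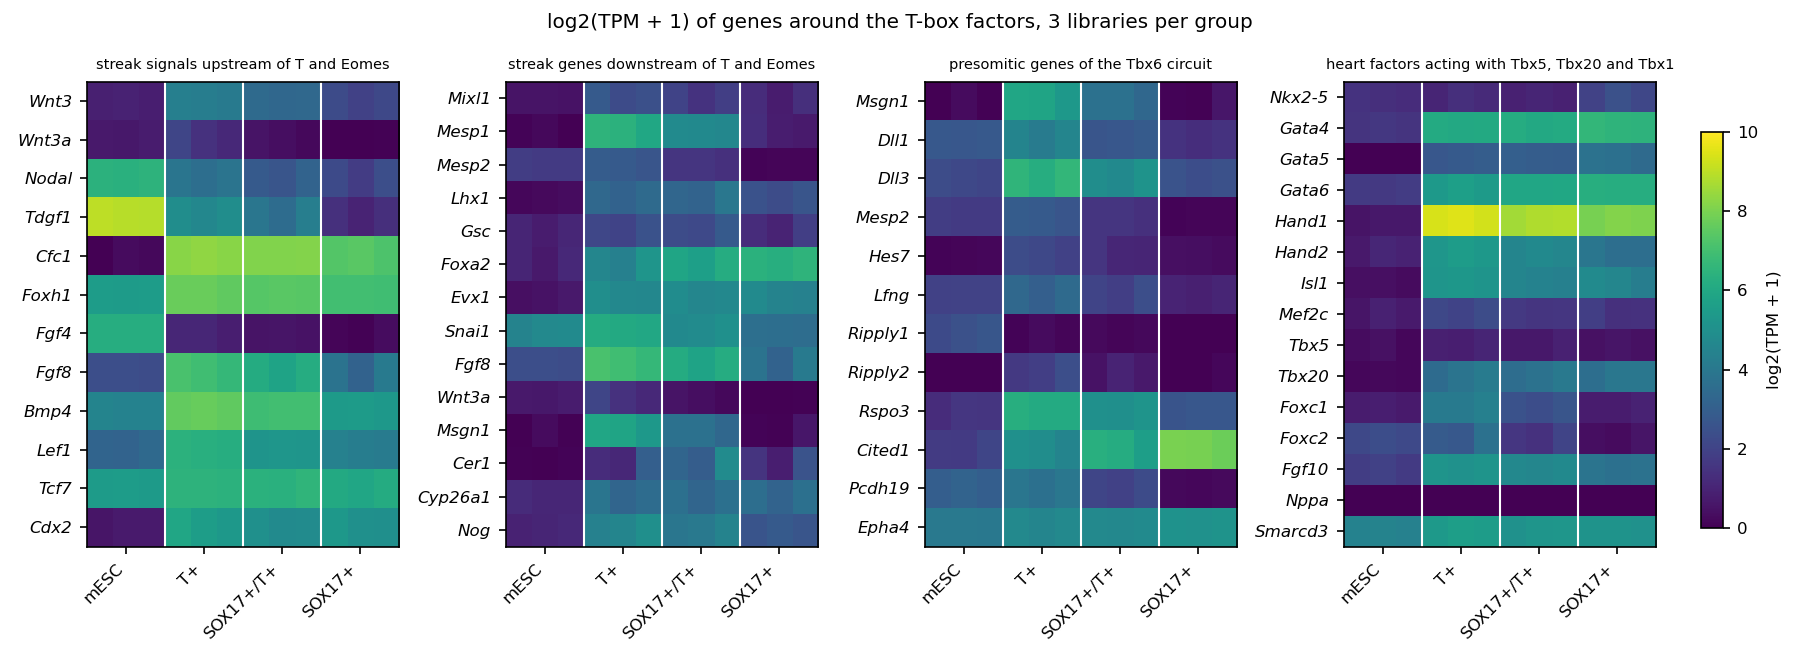
log2(TPM + 1), by colour, of the listed streak signals, streak genes, presomitic genes and heart genes (rows) in the 12 libraries (columns, 3 per group, replicates 1 to 3 from the left). In the presomitic panel most rows are brightest in T+, with Cited1 and Epha4 brightest in SOX17+. In the heart panel Hand1 is the brightest row in all sorted groups.

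Tbx6, a factor of presomitic mesoderm, was the tested gene other than T that differed in all 6 comparisons. It was at 0.134, 0.185 and 0.211 TPM in mESC (0.177 ± 0.0393), 31.4, 22.6 and 21.7 in T+ (25.2 ± 5.33), 6.49, 4.32 and 5.32 in SOX17+/T+ (5.38 ± 1.09), and 0.782, 1.07 and 0.498 in SOX17+ (0.782 ± 0.284). No 2 groups overlapped. Tbx6 was 2.04 ± 0.16 lower in SOX17+/T+ than in T+ (adjusted p = 8.2e-07) and 1.84 ± 0.16 lower again in SOX17+ than in SOX17+/T+ (adjusted p = 1.5e-06). Against mESC it rose by 4.46 ± 0.16 in T+ (adjusted p = 1.2e-11), 2.42 ± 0.16 in SOX17+/T+ (adjusted p = 6.1e-09) and 0.59 ± 0.16 in SOX17+ (adjusted p = 0.0034). Its order across the groups was that of T, but the ratio of T to Tbx6 was not constant. That ratio was 4.22, 4.07 and 7.27 in T+ and 6.22, 7.33 and 11.6 in SOX17+/T+, groups that overlapped. Between libraries with the same replicate number, which the data pair, it was higher in SOX17+/T+ in 3 of 3 pairs, and this was not tested. T is the sorting gene, so this ratio too is partly set by the gate.

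Of 12 presomitic genes that act with Tbx6, 9 were lower, 1 was higher and 2 were not called in SOX17+/T+ against T+. Over all tested genes 15.8% were lower and 12.6% higher. The median of the 12 was -1.21, beside -0.03. The largest falls were of Msgn1 (-2.11 ± 0.18, adjusted p = 4e-06), Pcdh19 (-1.76 ± 0.10, a protocadherin, adjusted p = 7.1e-08), Dll1 (-1.67 ± 0.10, adjusted p = 1e-07) and Dll3 (-1.55 ± 0.11, adjusted p = 5.3e-07). Dll1 and Dll3 are Delta-like genes of the Notch pathway. Msgn1 was at 59.5, 56.9 and 39.1 TPM in T+, 12.2, 12.1 and 9.07 in SOX17+/T+, and 0.0624, 0.0528 and 0.524 in SOX17+. In SOX17+ against T+ the count was again 9 lower and 2 higher, beside 29.0% lower and 25.4% higher over all tested genes. The median of the 12 was -2.49, beside -0.03. Cited1, a transcriptional co-regulator singled out after its values were seen, ran the other way, at 31.8, 28.8 and 21.8 TPM in T+, 77.5, 72.9 and 47.9 in SOX17+/T+, and 251, 248 and 215 in SOX17+. The other gene higher in SOX17+ than in T+ was Epha4 (0.46 ± 0.05, limma, adjusted p = 6.1e-06). Msgn1, Mesp2, Fgf8 and Wnt3a stand in more than 1 of these lists, so the counts are not independent.

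Tbx20, a factor of the heart and its precursors, was near 0 in mESC and level across the sorted groups. It was at 0.142, 0.168 and 0.139 TPM in mESC (0.15 ± 0.0157), 10.4, 13.4 and 16.7 in T+ (13.5 ± 3.17), 10.8, 12.6 and 15.6 in SOX17+/T+ (13 ± 2.44), and 11.2, 14.7 and 14.6 in SOX17+ (13.5 ± 2.02). The sorted groups overlapped, and all 9 sorted libraries lay above mESC. Against mESC it rose by 3.63 ± 0.16 in T+ (adjusted p = 1.9e-10), 3.59 ± 0.16 in SOX17+/T+ (adjusted p = 2.2e-10) and 3.65 ± 0.16 in SOX17+ (adjusted p = 1.8e-10). Between sorted groups its differences were -0.04, 0.06 and 0.02, each ± 0.16, with adjusted p of 0.83 to 0.95. These do not show that the levels are the same.

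Tbx1, a factor of the pharyngeal mesoderm and endoderm, was low everywhere. Its TPM was 0.383, 0.464 and 0.324 in mESC (0.391 ± 0.0703), 0.937, 0.752 and 1.57 in T+ (1.09 ± 0.43), 1.07, 0.931 and 1.11 in SOX17+/T+ (1.04 ± 0.0937), and 1.09, 0.616 and 0.944 in SOX17+ (0.882 ± 0.241). Every sorted library lay above every mESC library, and the sorted groups overlapped. It rose against mESC by 0.57 ± 0.13 in T+ (adjusted p = 0.0011), 0.55 ± 0.13 in SOX17+/T+ (adjusted p = 0.0014) and 0.43 ± 0.13 in SOX17+ (adjusted p = 0.0074). It was not called between sorted groups.

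Most other listed heart genes differed between SOX17+ and T+, where Tbx20 was not called. Of 15 listed, 13 were tested, Tbx20 itself among them. In T+, 12 were higher than in mESC with none lower, beside 34.5% higher and 49.5% lower over all tested genes. Of the 15, only 6 reached a mean of 1 TPM in mESC, against 13 in T+. The other tested genes passed the filter through sorted groups where they are high, so this count was largely set by the filter. The largest rises were of Hand1 (8.81 ± 0.07), Isl1 (4.87 ± 0.11), Gata4 (4.52 ± 0.06) and Hand2 (4.47 ± 0.11), all factors of cardiac or lateral mesoderm. In SOX17+ against T+, 8 were lower, 4 higher and 1, Tbx20, was not called, beside 29.0% lower and 25.4% higher over all tested genes. Foxc1 (-3.35 ± 0.09) and Foxc2 (-2.71 ± 0.23) are forkhead factors of mesoderm, and Hand2 (-1.67 ± 0.11) and the ligand Fgf10 (-1.37 ± 0.07) fell less. The 4 that rose, named after their values were seen, were Nkx2-5 (0.99 ± 0.12), Gata5 (0.81 ± 0.09), Gata6 (0.76 ± 0.06) and Gata4 (0.47 ± 0.06), the GATA factors being also endoderm factors. Nkx2-5, an early cardiac homeobox gene, was at most 4.55 TPM in any library, and Nppa, a gene of working heart muscle, was listed at 0 in all groups.

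Tbx2 and Tbx3 moved in opposite directions. Tbx2 was at 0.44, 0.714 and 0.459 TPM in mESC (0.538 ± 0.153), 5.28, 7.05 and 5.96 in T+ (6.1 ± 0.891), 4.88, 6.06 and 6.19 in SOX17+/T+ (5.71 ± 0.719), and 3.91, 5.03 and 4.83 in SOX17+ (4.59 ± 0.596). It rose against mESC by 2.20 ± 0.12 in T+ (adjusted p = 9.1e-10), 2.12 ± 0.12 in SOX17+/T+ (adjusted p = 1.3e-09) and 1.86 ± 0.12 in SOX17+ (adjusted p = 5.2e-09). All T+ libraries lay above all SOX17+ libraries, with a difference of -0.34 ± 0.12 in SOX17+ against T+ (adjusted p = 0.027). That call was lost with a pseudocount of 0.1 (-0.40, adjusted p = 0.068), without T+ replicate 2 (-0.25, adjusted p = 0.12) or 3 (-0.35, adjusted p = 0.052), and without SOX17+ replicate 1 (-0.25, adjusted p = 0.12).

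Tbx3 was the most abundant T-box gene in mESC and in SOX17+. It was at 79.1, 80.6 and 73.5 TPM in mESC (77.7 ± 3.75), 31.1, 34.1 and 32.6 in T+ (32.6 ± 1.51), 35.9, 34.6 and 38.1 in SOX17+/T+ (36.2 ± 1.78), and 60, 53.9 and 59.7 in SOX17+ (57.9 ± 3.44). The groups did not overlap, although T+ and SOX17+/T+ were close. Tbx3 fell against mESC by 1.23 ± 0.06 in T+ (adjusted p = 1.7e-10), 1.08 ± 0.06 in SOX17+/T+ (adjusted p = 6.4e-10) and 0.42 ± 0.06 in SOX17+ (adjusted p = 1.2e-05). With quantile normalization these were -0.94, -0.76 and -0.12, the last with an adjusted p of 0.04. Among sorted cells, Tbx3 was 0.81 ± 0.06 higher in SOX17+ than in T+ (adjusted p = 6.6e-08) and 0.66 ± 0.06 higher in SOX17+ than in SOX17+/T+ (adjusted p = 1.6e-06). Between SOX17+/T+ and T+ the difference was 0.15 ± 0.06 (adjusted p = 0.071), and it was called under both other scalings, median-of-ratios (0.18, adjusted p = 0.017) and quantile (0.19, adjusted p = 0.015).

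The 12 pluripotency genes listed beside Tbx3 all fell in each sorted group, where 49.5% to 50.3% of all tested genes were lower. These 12 fell further than Tbx3. Their median difference from mESC was -5.81 in T+, -6.19 in SOX17+/T+ and -6.84 in SOX17+. In SOX17+ the largest falls were of Zfp42 (-8.14 ± 0.14), Klf2 (-8.01 ± 0.10), Pou5f1 (-7.68 ± 0.11) and Esrrb (-7.55 ± 0.11). Whereas Tbx3 was higher in SOX17+ than in T+, 6 of these 12 were lower, 1 was higher and 5 were not called. The shares over all tested genes were 29.0% lower and 25.4% higher. Pou5f1 was at 108, 92.5 and 74.9 TPM in T+, 26.7, 26.2 and 22.3 in SOX17+/T+, and 6.03, 5.08 and 5.96 in SOX17+. The single gene of the 12 that rose was Tfcp2l1 (1.54 ± 0.07, adjusted p = 6.5e-10), named after its values were seen. All 14 feeder fibroblast markers fell from mESC to each sorted group as well, and embryonic fibroblasts can express Tbx3 and other T-box genes. Their part in the differences from mESC was not tested. Between SOX17+ and T+, 2 feeder markers were higher and 7 lower in SOX17+, and 8 of 8 blood, 6 of 7 endothelium and 7 of 8 extraembryonic endoderm markers were higher there. Their part in the rise of Tbx3 was not tested.

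Transcripts beside Tbx3 (chr5:119670669-119684724, plus strand) differed from it. Tbx3os2, a long non-coding RNA on the minus strand 371 bases from Tbx3, was at 0.705, 0.673 and 0.374 TPM in mESC, 0.223, 0.315 and 0.104 in T+, 0.921, 0.726 and 0.632 in SOX17+/T+, and 2.96, 2.49 and 3.39 in SOX17+. It was highest in SOX17+, without overlap, 1.70 ± 0.11 above T+ (adjusted p = 3.5e-08) and 1.32 ± 0.11 above mESC (adjusted p = 9.7e-08). It was thus higher in SOX17+ than in mESC where Tbx3 was lower, and both were higher in SOX17+ than in T+. Tbx3os1, an antisense RNA that overlaps the start of Tbx3, was at 2.95, 0.818 and 4.53 TPM in mESC, 0.805, 1.54 and 1.54 in T+, 1.76, 0.834 and 0.886 in SOX17+/T+, and 1.78, 3.36 and 3.39 in SOX17+. Its groups overlapped and it was not called in any comparison (adjusted p of 0.11 to 0.89). The library kit keeps strand. Whether counting used it was not stated, so reads of overlapping transcripts may be shared.

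**Figure D4:**
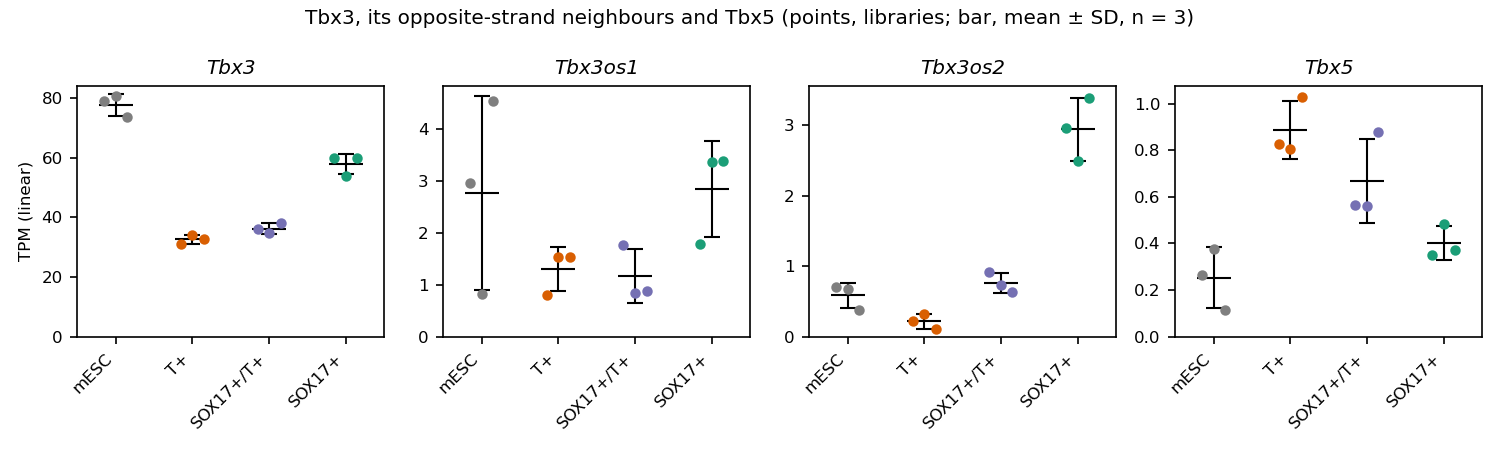
TPM (linear y axes that differ by panel) of Tbx3, of its opposite-strand neighbours Tbx3os1 and Tbx3os2, and of Tbx5, which lies 147.9 kb away on the same chromosome; points are libraries, bars mean ± SD, n = 3. Tbx3 is highest in mESC, Tbx3os2 in SOX17+ and Tbx5 in T+.

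Tbx2 and Tbx4 are neighbours on chromosome 11, 44.5 kb apart, and Tbx3 and Tbx5 on chromosome 5, 147.9 kb apart. In each pair the other gene stayed low. Tbx4, a hindlimb and lung factor, was at 0.657, 0.928 and 0.672 TPM in mESC, 0.763, 0.803 and 1.31 in T+, 0.428, 0.407 and 0.636 in SOX17+/T+, and 0.146, 0.179 and 0.41 in SOX17+. All SOX17+ libraries lay below all mESC and T+ libraries. In a fit without the filter, over 33055 genes, Tbx4 fell by 0.65 ± 0.12 in SOX17+ against T+ (adjusted p = 0.0024) and by 0.50 ± 0.12 against mESC (adjusted p = 0.0056). Tbx5, a factor of the forelimb and of heart chambers, was at 0.266, 0.376 and 0.116 TPM in mESC, 0.825, 0.805 and 1.03 in T+, 0.566, 0.56 and 0.877 in SOX17+/T+, and 0.349, 0.485 and 0.372 in SOX17+. In the same fit it rose by 0.59 ± 0.10 in T+ against mESC (adjusted p = 0.00036) and by 0.41 ± 0.10 in SOX17+/T+ (adjusted p = 0.0042), and was 0.43 ± 0.10 lower in SOX17+ than in T+ (adjusted p = 0.0074).

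Tbx18, a factor of the epicardium and the somites, was highest in mESC. It was at 0.951, 1.13 and 0.796 TPM in mESC, 0.168, 0.255 and 0.501 in T+, 0.0335, 0.0365 and 0.11 in SOX17+/T+, and 0.0408 in 1 SOX17+ library, the other two being listed at 0. In the fit without the filter it fell against mESC by 0.59 ± 0.09 in T+ (adjusted p = 0.00023), 0.88 ± 0.09 in SOX17+/T+ (adjusted p = 9.6e-06) and 0.95 ± 0.09 in SOX17+ (adjusted p = 5.3e-06). A related gene outside the 10, Tbx15, ran the same way, at 5.98, 7.06 and 6.82 TPM in mESC and at most 0.269 in any sorted library, with a difference of -2.65 ± 0.08 in T+ (adjusted p = 1.6e-12). The feeder fibroblast sum fell from mESC to sorted cells in the same way, and Tbx15 and Tbx18 are known from embryonic fibroblasts. Its part in these differences was not tested.

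**Figure D5:**
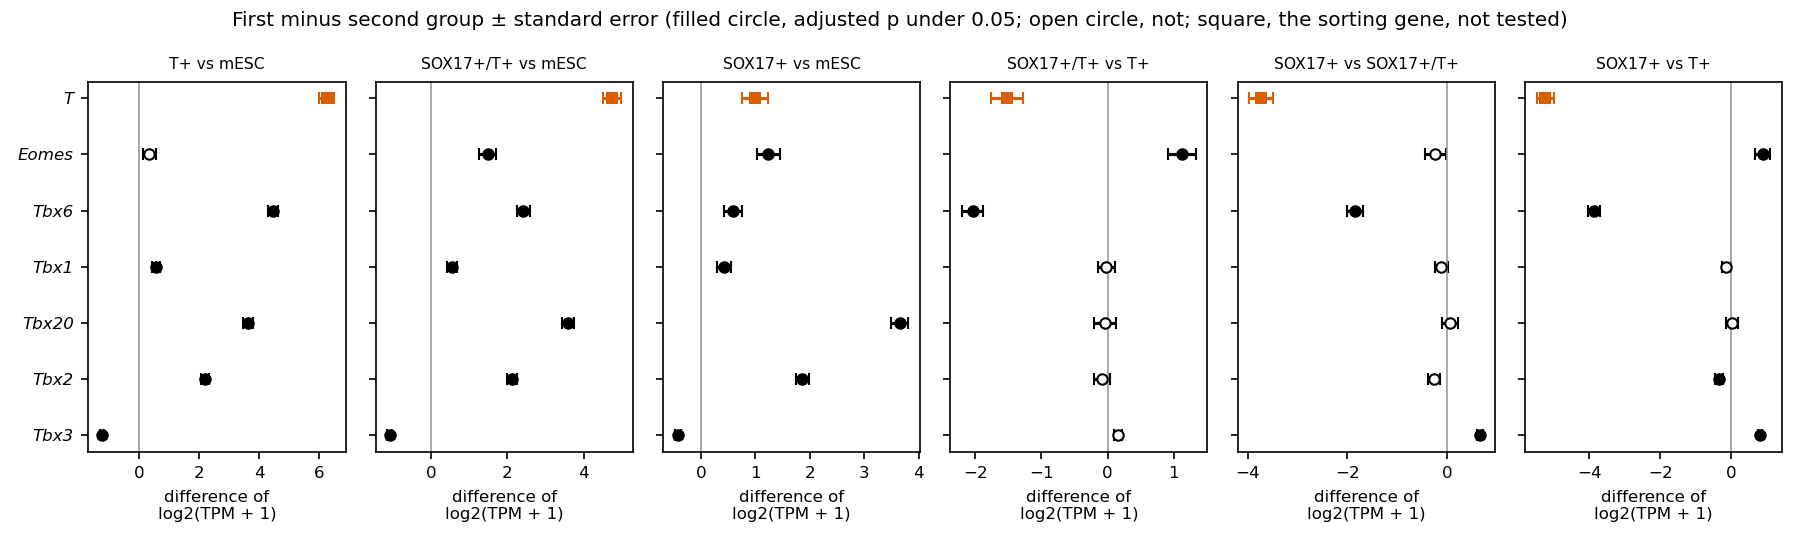
Difference of log2(TPM + 1) ± standard error (x axis, range differs by panel) for the 7 tested T-box genes in the 6 comparisons, first minus second group; filled circles have an adjusted p under 0.05, open circles do not, and squares are T, the sorting gene, shown without a test. Tbx3 is the single gene left of 0 against mESC, and in the last panel Tbx6 lies at -3.87 while Eomes and Tbx3 lie at 0.89 and 0.81.

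Of the other 6 T-box genes outside the 10, Mga, a large factor that also binds E-boxes, was broadly present, at 36.8 ± 1.13 TPM in mESC, 34.7 ± 2.11 in T+, 32.3 ± 2.03 in SOX17+/T+ and 27.8 ± 4.2 in SOX17+. It fell by 0.40 ± 0.09 in SOX17+ against mESC (adjusted p = 0.00092). Tbr1, Tbx10, Tbx19, Tbx21 and Tbx22 did not exceed 0.256 TPM in any library.

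Genes with the profile most like each member were taken by Pearson's r of log2(TPM + 1) over the 12 libraries, a description in which the libraries share groups and the difference of mESC from sorted cells weighs heavily. For Tbx6 they were Hes7 (r = 0.9924), Fah (r = 0.9923) and Sprr2a2 (r = 0.9913). Hes7, a presomitic clock gene and one of the listed genes, had group means of 0.107 TPM in mESC, 3.45 in T+, 1.36 in SOX17+/T+ and 0.279 in SOX17+. For T they were Sox4 (r = 0.9944), Bicc1 (r = 0.9937) and Avpr1b (r = 0.9933), and for Tbx20 Orai3 (r = 0.9952), Spon1 (r = 0.9950) and Magohb (r = 0.9949). For Tbx3 they were Vmp1 (r = 0.9910), Ypel2 (r = 0.9908) and Ap3d1 (r = 0.9906), and for Tbx2 Ppic (r = 0.9950), Rps27rt (r = 0.9938) and Adamts17 (r = 0.9930). Likeness was lower for Eomes, whose nearest were Tph1 (r = 0.9675), Gpm6b (r = 0.9461) and Stk32a (r = 0.9449), and for Tbx1, with Vtn (r = 0.9312), Pkd1l1 (r = 0.9277) and Upk3a (r = 0.9268). Tph1, an enzyme of serotonin synthesis, had means of 0.0786, 0.312, 3.83 and 3.23 TPM in mESC, T+, SOX17+/T+ and SOX17+.

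Within 50 kb of the 10 genes the table holds 45 entries, counting a gene once for each member it lies near, and 16 of them reach a group mean of 1 TPM. Beside Tbx6, Ypel3, 969 bases away on the same strand, was at 19.6, 22.4 and 21.6 TPM in mESC, 52.9, 48 and 44.4 in T+, 35.8, 31.1 and 30.8 in SOX17+/T+, and 30.1, 29.1 and 25.9 in SOX17+. It shared the order of Tbx6 over the groups within a far smaller range. Beside Tbx1, Sept5, a septin, was at 27.6, 29.8 and 26.2 TPM in mESC and 3.49 to 5.59 in the sorted libraries, opposite to Tbx1. Beside Tbx2, Bcas3 was likewise highest in mESC, at 31.3, 31.3 and 32 TPM, and 17.8, 14.8 and 16.8 in T+. Beside T, Sft2d1 was at 24.1, 23.6 and 19.9 TPM in mESC and 12.5, 12.8 and 13.1 in T+, and beside Eomes, Golga4 was at 11.7, 12 and 11.6 in mESC and 7.87, 8.74 and 7.86 in T+. The others reaching that level are Gnb1l beside Tbx1, AC164431.1 beside T, Tbx2 itself beside Tbx4, and Ppp4c, Gdpd3, Aldoa (2 identifiers), Fam57b and Mapk3 beside Tbx6.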

How the data were processed

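Poly(A) RNA of 12 libraries, 3 in each of mESC, T+, SOX17+/T+ and SOX17+, was sequenced from a stranded kit, per the labels' protocols. Tools named in the submitters' processing notes are cutadapt, STAR and StringTie (no versions), with mm10 and GRCm38 as builds. Not given in the sources used here are annotation release and counting options. The authors deposited TPM values, 1 column per library, and every column is scaled to the same total, so depth is unknown and no count test was run. The table has 54480 rows; 282 empty cells were set to 0, and rows were summed per gene identifier to 54446 genes. No value column was left unused. An exact 0 can be a failed estimate.

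Deposited values were taken as log2(TPM + 1). Genes at 1 TPM or more in at least 3 of 12 libraries were tested (16097) with limma 3.58.1 in R 4.3.3 (1 mean per group, eBayes with trend and robust, 2-sided, Benjamini-Hochberg over all tested genes, called under 0.05). The method was tested on simulated data. Alternatives were pseudocount, filter, scaling, fitting only the groups compared, a replicate block, eBayes without trend or robust, and leaving out each library. A replicate block fitted to only the SOX17+/T+ and T+ libraries was added after seeing the data.

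The 10 genes and the gene lists were chosen with earlier results of these data known. All 10 are named with every value. From each further list, up to 4 called genes with the largest difference in the comparison are named; for markers, the 2 most abundant; for likeness, the 3 highest r without predicted genes; and genes within 50 kb of a member that reach a mean of 1 TPM. Groups share replicate numbers. After removing group means, same-numbered libraries of SOX17+/T+ and T+ correlated across genes at r = 0.204, 0.149 and 0.242, which pairs them by the data, the labels not stating it; in each other comparison at least 1 such r was under 0.1.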

Additional observations from a re-analysis of the deposited data

How the results depend on the processing

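The numbers of T-box genes called in the 6 comparisons stayed within 1.5 times the main count under every alternative run; the counts were 5 to 8 in T+ against mESC, 6 to 9 in SOX17+/T+ and in SOX17+ against mESC, 3 to 4 in SOX17+/T+ against T+ and in SOX17+ against SOX17+/T+, and 4 to 7 in SOX17+ against T+. With the replicate block the counts of T-box genes were 6, 7, 7, 3, 4 and 5, the added call being Tbx2 in SOX17+ against SOX17+/T+ (-0.26, adjusted p = 0.016). With the replicate block on only the SOX17+/T+ and T+ libraries, which the data pair, the count was 3. The block changed no other call of these genes. Of 589 differences of these genes under alternatives, 564 kept direction and call, 7 became called, 5 lost their call and 13 changed sign. Those that changed sign were uncalled and did so when 1 library was left out; over the libraries left out, the values ranged, in SOX17+/T+ against T+, from -0.13 to 0.14 for Tbx1, from -0.16 to 0.02 for Tbx2 and from -0.20 to 0.12 for Tbx20; in SOX17+ against SOX17+/T+, from -0.06 to 0.19 for Tbx20; and in SOX17+ against T+, from -0.25 to 0.02 for Tbx1 and from -0.15 to 0.17 for Tbx20. Eomes in T+ against mESC was also called with median-of-ratios scaling (0.46, adjusted p = 0.05 after rounding), Tbx2 in SOX17+ against SOX17+/T+ without SOX17+/T+ replicate 1 (-0.36, adjusted p = 0.049), and the call of Tbx2 in SOX17+ against T+ was lost without the filter (-0.34, adjusted p = 0.067). The 5 T-box calls lost are all of Tbx2 in SOX17+ against T+. Of 425 list counts 423 stayed within 1.5 times; the pluripotency list in SOX17+ against SOX17+/T+ went from 8 to 5 called genes without the filter and without SOX17+/T+ replicate 1. The cause was not tested. The depth behind a value is unknown, so levels under about 1 TPM have unknown counting error: those of Tbx1, Tbx4, Tbx5 and Tbx18 in most libraries, of T, Tbx2, Tbx6 and Tbx20 in mESC, on which their rises rest, and the mean of Tbx6 in SOX17+.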
